A study of Homo sapiens with 28 samples.

Results

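INHBE, GDF15 and the activin-type ligands are 9 genes of the TGFβ superfamily and its secreted inhibitors that were followed here array by array. They are INHBE, INHBA, INHBB, INHBC, INHA, GDF15, GDF11, FST and FSTL3, out of 18417 genes with a value. Each was measured by 1 probeset, a group of array probes assigned to 1 gene symbol. INHBE and GDF15 were chosen by their log2 levels, which stood above control in the first of 2 series of arrays, and the other 7 because they belong to the same ligand family or bind its members. The levels that led to this choice are therefore given as a description, with no test.

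Activins are dimers of β subunits. INHBA, INHBB, INHBC and INHBE each encode a β subunit, and INHA encodes the α subunit that pairs with a β subunit to form an inhibin, which opposes activin. Activins and GDF11 bind ACVR2A or ACVR2B, which recruit ACVR1B or ACVR1C, and the signal passes through SMAD2, SMAD3 and SMAD4. FST (follistatin) and FSTL3 are secreted proteins that bind activins and GDF11 and keep them from the receptor. GDF15 is a distant relative that acts through GFRAL and RET, and its transcript is known to rise in stressed cells. INHBE is best known from the liver, where it is made as a secreted factor, and it is also known as a gene switched on in endoplasmic reticulum stress.

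The cells were HEK293, a line of human embryonic kidney origin, which carried a lentivirus that expresses a short hairpin RNA from the U6 promoter and were kept in puromycin. Hairpins were directed against CLP1, DDX5, DDX17, HNRNPL or CPSF6 in the first series of 14 arrays, with 3 different hairpins for each gene except CPSF6, which had 1. Hairpins against PABPC1, PARP1, PRKDC or SUPT16H, 3 for each gene, made up the second series of 14 arrays. The control in each series was a hairpin against lacZ, a bacterial gene that human cells do not have. All 28 arrays thus carry a virus, a hairpin and drug selection. The hairpins were those that lowered their targets best among several tried by the study. Each hairpin array was a sample of its own, but the labels do not tell whether the lacZ samples were separate cultures, so the p-values given here cover the spread among these arrays alone, part of which may be technical.

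The first series held 1 lacZ array and the second 2, and the array in the first was the same sample as replicate 2 in the second. The labels do not tell with which series this sample was run. A first-series difference from lacZ therefore cannot be told apart from a difference between runs. Replicates 1 and 2 were offset by a mean of 0.33 on the log2 scale with an SD over genes of 0.06, and the SD against replicate 3 was 0.24 for replicate 1 and 0.23 for replicate 2. Replicates 1 and 2 differed by less than sampling noise and count as 1 sample here. The series were normalized apart, with median intensities per array of 61.5 to 74 (first series) and 54.5 to 58.3 (second series), and a level in one series is not set against a level in the other. The target of each hairpin was lower than in lacZ on all 24 arrays of genes with 3 hairpins, at 18.8% of the lacZ level for PABPC1 hairpin 1 at one end and 69.7% for CLP1 hairpin 2 at the other. Of 7 markers of HEK293 cells 4 (NEFL, VIM, KRT8 and KRT18) lay above the array median on all 28 arrays, and all 6 hepatocyte markers lay below it on all 28. Below it on all 28 were also 3 of 5 granulosa, 3 of 4 leukocyte and 5 of 6 fibroblast markers, while the granulosa marker AMH lay above it on all 28. The mean log2 level of the HEK293 markers was 7.98 to 8.29 in first-series knockdowns against 8.56 in lacZ, and 7.66 to 8.09 in second-series knockdowns against 8.24 and 8.25 in lacZ. Against lacZ 0 of the 7 HEK293 markers rose with any knockdown. LHX1 fell with CLP1 (-0.78), DDX17 (-1.03) and HNRNPL hairpins (-0.85), and NEFL with DDX17 (-1.46), PABPC1 (-2.04), PARP1 (-1.57), PRKDC (-1.89) and SUPT16H hairpins (-1.19), while the list's median was -0.47 to -0.34 with the 4 first-series genes and -0.20 to 0.04 with the 4 second-series genes. Of the other lists, 3 of 6 hepatocyte, 1 of 5 granulosa and 2 of 6 fibroblast markers rose with PRKDC hairpins, as did 19.6% of all genes. The fibroblast markers LUM (0.62, DDX17 hairpins) and PDGFRB (0.47, SUPT16H hairpins) also rose. CD14, a leukocyte marker, fell with CLP1 (-1.12), HNRNPL (-1.12), PABPC1 (-0.73), PARP1 (-1.19), PRKDC (-0.68) and SUPT16H hairpins (-1.05). The part of these markers in the results was not tested. In bulk RNA, fewer cells that express a gene and less RNA per cell cannot be told apart.

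INHBE, the βE subunit, showed the widest departure from lacZ among the 9 genes. In the first series its log2 level was 7.48, 7.75 and 7.70 in hairpins 1, 2 and 3 against CLP1. It was 8.31, 6.95 and 7.22 in those against DDX5 and 8.15, 8.23 and 8.17 in those against DDX17. It was 8.26, 7.92 and 8.23 with HNRNPL hairpins and 7.53 on the CPSF6 array, against 5.64 in lacZ. All 13 knockdown arrays thus lay above the lacZ array, the closest of them, DDX5 hairpin 2, by 1.31 (2.47-fold) and the farthest, DDX5 hairpin 1, by 2.67 (6.37-fold). The mean difference from lacZ was 2.54 with DDX17, 2.50 with HNRNPL, 2.00 with CLP1 and 1.85 with DDX5 hairpins. The DDX17 and HNRNPL arrays overlapped each other, and the DDX5 arrays spanned the range of all the others. The lowest HNRNPL array (7.92) lay above the highest CLP1 array (7.75), but the share of all genes parted in this way was not counted. The spread between hairpins was smallest for DDX17 (SD 0.04, n = 3) and largest for DDX5 (SD 0.72, n = 3).

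Among the second-series arrays INHBE lay close to lacZ. Its log2 level was 5.06, 5.12 and 5.34 with PABPC1 hairpins, 5.36, 5.22 and 4.99 with PARP1 hairpins, 5.55, 5.43 and 4.96 with PRKDC hairpins and 5.77, 5.47 and 5.31 with SUPT16H hairpins. The lacZ arrays read 5.46 and 5.72. One knockdown array, SUPT16H hairpin 1, lay above both lacZ arrays, 9 lay below both, and 2 lay between them.

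**Figure D1:**
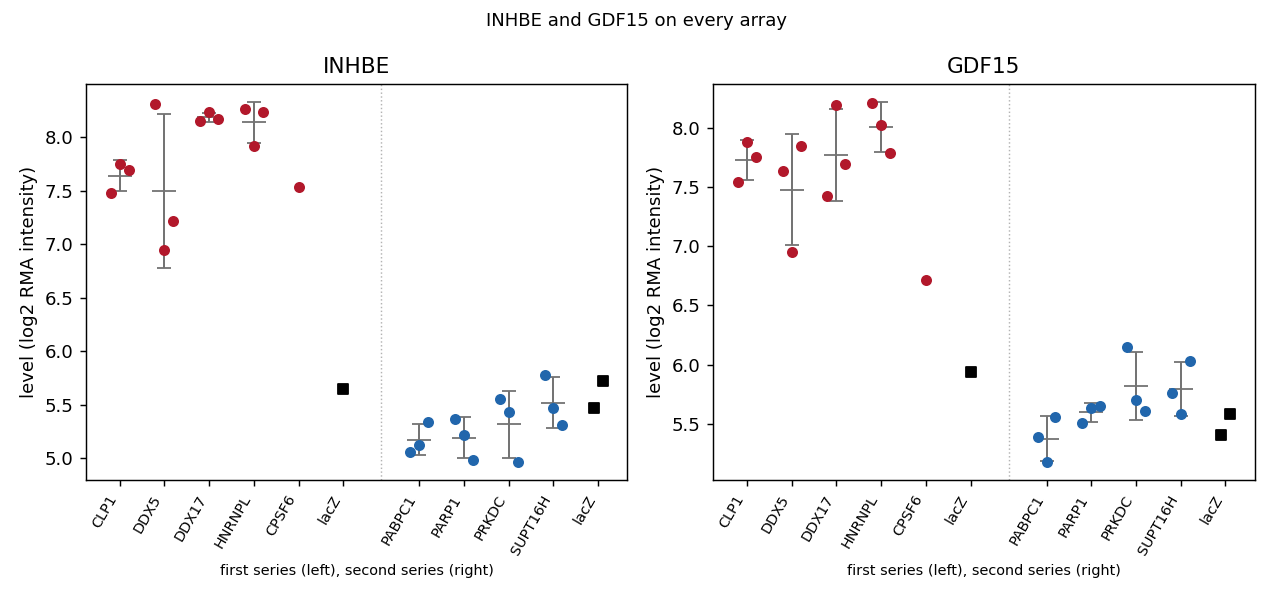
Level of INHBE (left) and GDF15 (right) in log2 RMA intensity on each array, with first-series knockdowns in red, second-series knockdowns in blue and lacZ arrays as black squares; grey bars give the mean and SD of 3 hairpins. Every first-series knockdown array lies above the lacZ array for both genes, and the second-series arrays lie near their lacZ arrays.

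GDF15, the stress-related cytokine, followed the same division between the series. In the first series its log2 level was 7.55, 7.88 and 7.76 with CLP1 hairpins, 7.64, 6.95 and 7.85 with DDX5 hairpins, and 7.42, 8.19 and 7.70 with DDX17 hairpins. It was 8.22, 8.02 and 7.79 with HNRNPL hairpins and 6.72 on the CPSF6 array, against 5.94 in lacZ. Again all 13 knockdown arrays lay above lacZ, the CPSF6 array by the least (0.78) and HNRNPL hairpin 1 by the most (2.28). The mean differences from lacZ were 2.07 with HNRNPL, 1.83 with DDX17, 1.79 with CLP1 and 1.54 with DDX5 hairpins, and the arrays of the 4 genes overlapped. On second-series arrays GDF15 read 5.39, 5.17 and 5.56 with PABPC1, 5.50, 5.64 and 5.65 with PARP1, 6.15, 5.70 and 5.61 with PRKDC and 5.76, 5.58 and 6.03 with SUPT16H hairpins. The lacZ arrays read 5.40 and 5.58, so that 7 of the 12 knockdown arrays lay above both and 2 below both.

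Levels were also set against how far each hairpin lowered its own target. Among first-series genes the hairpin with the least target left had the highest INHBE level for 1 of 4 genes (HNRNPL) and the highest GDF15 level for 2 of 4. For CLP1 this order rests on array values that lie close together (64.5%, 67.3% and 69.7% of lacZ with hairpins 3, 1 and 2). The study's own measure by real-time PCR gave a stronger CLP1 knockdown than these arrays, and slightly more with hairpin 2 than with hairpin 3. DDX5 hairpin 1, with the highest INHBE level of the series, left 55.8% of DDX5, while hairpin 3, with an INHBE level of 7.22, left 40.5%. In the second series the count was 1 of 4 for INHBE and 1 of 4 for GDF15. For INHBA it was 1 of 4 in the first series and 4 of 4 in the second, where its levels spanned only 4.79 to 5.38. With PRKDC this rests on nearly equal INHBA levels, 5.2996 for hairpin 3 and 5.2981 for hairpin 1. The share of all genes that reach such counts was not taken, so no relation to target loss is drawn from them.

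INHBA, the βA subunit of activin A, differed between the knockdowns of the first series. It read 6.56, 6.86 and 7.25 with DDX17 hairpins and 6.45, 6.63 and 6.12 with HNRNPL hairpins. The levels were 5.28, 5.54 and 6.16 with CLP1, 5.85, 5.43 and 5.59 with DDX5 and 5.53 with CPSF6 hairpins, against 5.31 in lacZ. The DDX17 arrays overlapped with those of HNRNPL and with no others, and CLP1 hairpin 1 lay just below lacZ. How many of all genes part the DDX17 arrays from others in this way was not counted. Second-series levels of INHBA were 5.04, 4.79 and 4.98 with PABPC1, 5.27, 4.96 and 4.95 with PARP1, 5.30, 5.24 and 5.30 with PRKDC and 5.09, 5.06 and 5.38 with SUPT16H hairpins, against 5.01 and 4.82 in lacZ.

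GDF11, a close relative of myostatin, was the member with lower levels than lacZ in both series. It read 6.83, 6.80 and 6.52 with CLP1, 6.76, 6.89 and 6.59 with DDX5, 6.65, 6.36 and 6.58 with DDX17, 6.92, 6.53 and 6.84 with HNRNPL and 6.78 with CPSF6 hairpins, against 7.38 in lacZ. Second-series levels were 6.90, 6.22 and 6.82 with PABPC1, 7.03, 7.04 and 7.05 with PARP1, 6.40, 6.71 and 7.05 with PRKDC and 6.55, 6.45 and 6.84 with SUPT16H hairpins, against 7.07 and 7.28 in lacZ. All 25 knockdown arrays therefore lay below the lacZ arrays of their series, by 0.46 to 1.03 in the first and by 0.13 to 0.96 below the lacZ mean in the second. The same held for 4.3% of all genes, and every one of these values uses the shared lacZ array.

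FST, the activin-binding follistatin, read 5.54 to 6.21 on the 13 first-series knockdown arrays (median 5.78) and 5.50 in lacZ, so that all 13 lay above it, the closest by 0.04. On the 12 second-series arrays FST read 5.05 to 5.37 (median 5.19), against 5.15 and 5.13 in lacZ, with 8 of 12 arrays above both and 2 below both. Of the 9 members 3 (INHBE, GDF15 and FST) were above lacZ on all 13 first-series arrays, as were 8.24% of all genes, and 1 (GDF11) was below it on all 13, as were 9.72%. Among second-series arrays 0 members were above both lacZ arrays on all 12, as were 12.7% of all genes, and 1 (GDF11) was below both, as were 12.4%. The choice of INHBE and GDF15 fixed their place in the first of these counts.

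The remaining members stayed close to lacZ. INHBB, the βB subunit, read 6.49 to 7.09 on first-series knockdown arrays (median 6.72) against 6.62 in lacZ, and 6.10 to 6.62 in the second series against 6.31 and 6.37. INHBC, the βC subunit, whose gene neighbours INHBE on chromosome 12, read 4.70 to 5.22 (median 5.05) against 5.19, and 4.55 to 5.18 in the second series against 4.63 and 4.86. INHBC lay below lacZ on 11 of the 13 first-series arrays, on all of which its neighbour INHBE lay above. INHBC was weak on every array, at percentile 16.8 to 26.3 of all genes, where a change may not register. On their lowest arrays INHBE (percentile 21.5), INHBA (20.7), FST (24.8) and GDF15 (28.3) were also weak, so small changes there are uncertain. INHA, the inhibin α subunit, read 5.17 to 6.09 (median 5.43) against 5.69 in lacZ, with 12 of 13 arrays below it and DDX5 hairpin 3 (6.09) above. On second-series arrays INHA read 5.33 to 5.69 against 5.15 and 5.41, above both lacZ arrays on 11 of 12. For such counts short of every array of a series, here and for INHBE, GDF15 and FST, the share over all genes was not taken. FSTL3, the follistatin relative, read 5.91 to 6.68 (median 6.22) against 6.30 in lacZ, and 5.94 to 6.38 against 5.97 and 6.12 in the second series.

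**Figure D2:**
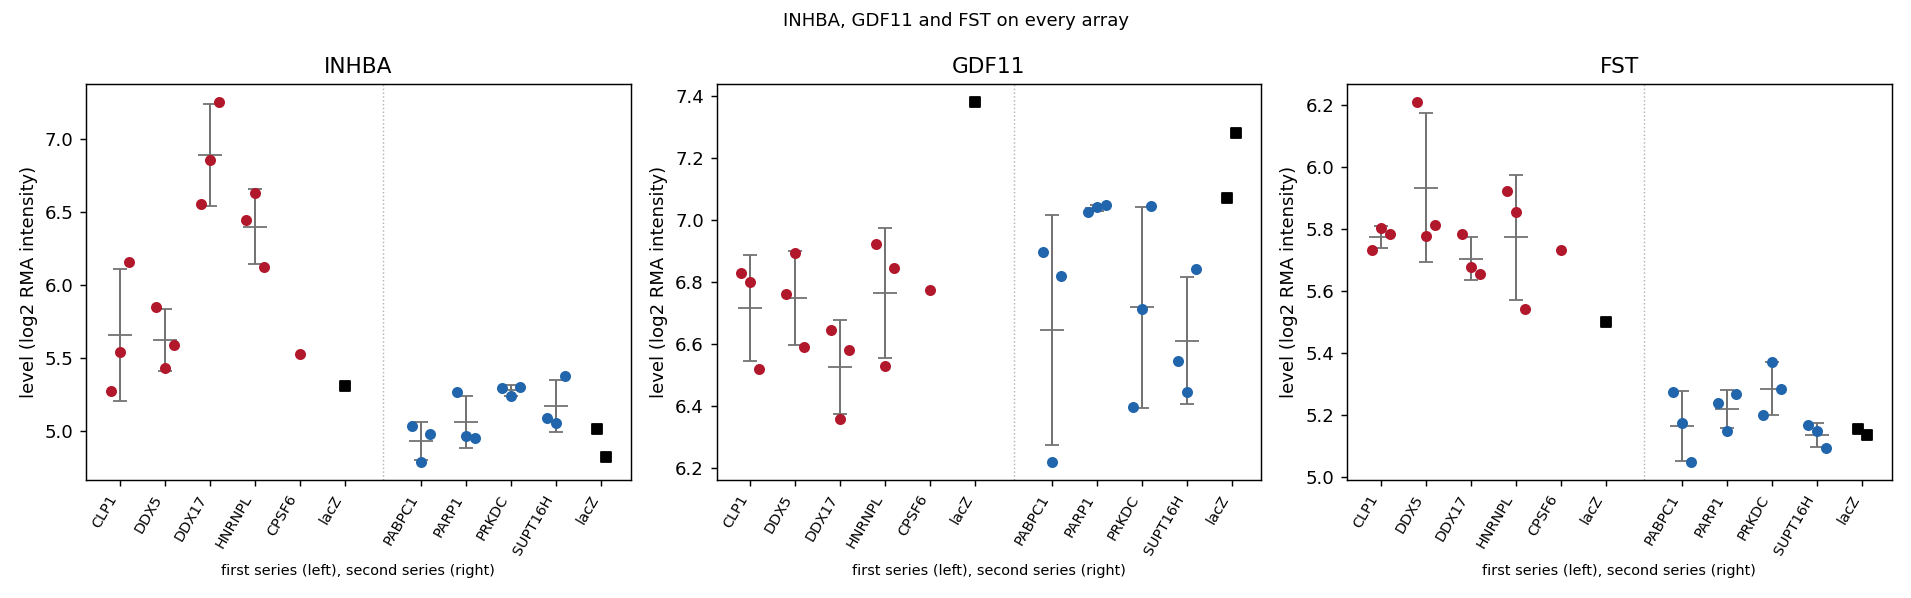
Level of INHBA, GDF11 and FST in log2 RMA intensity on each array, with first-series knockdowns in red, second-series knockdowns in blue and lacZ arrays as black squares; grey bars give the mean and SD of 3 hairpins. INHBA is highest with DDX17 hairpins (6.56 to 7.25), GDF11 lies below lacZ on all 25 knockdown arrays, and FST spans less than 1 log2 unit in either series.

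Promoter sequence was available for 8 of the 9 members, INHBE not being among the entries matched, as the 250 bases before and 50 after the transcription start in RefSeq GRCh38.p14. A search of both strands for TATAAA, the core of the TATA box, matched 4 of the 8 (INHBA, GDF15, GDF11 and FSTL3), and 11.5% of 35116 promoters. CCAAT matched 5 of 8 (INHBA, INHBC, GDF15, GDF11 and FST), against 34.6%, and TGATGNAAN, a composite element of the kind that ATF4 dimers bind, matched 0 of 8, against 3.61%. The stretches around TATAAA (in capitals) are shown for GDF15 and INHBA, the members whose levels varied most among those with an entry. They lie on chr19:18386117-18386146, plus strand, where the motif begins 29 bases before the start, and on chr7:41703084-41703113, minus strand, where it begins 11 bases before the start used by that table.
GDF15: aagtccggggacTATAAAggccggtccggc
INHBA: taagtagtacagTATAAAacttcacagtgc

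The next question was whether the members differed between knockdowns when no control array was used. Each knockdown was set against the mean of the other 3 genes with 3 hairpins of its series in a linear model fitted with limma across all genes. Adjustment followed Benjamini and Hochberg across the 18417 genes, an adjusted p under 0.05 was taken as a call, and errors are the model's standard errors. INHBA rose with DDX17 hairpins, where it averaged 6.89 ± 0.35 (SD, n = 3), against 5.89 over the 9 arrays of the other knockdowns, a difference of 0.995 ± 0.15 (limma adjusted p = 0.00119). All 3 DDX17 hairpins lay above that mean, and the call was kept in 20 of 21 alternative settings (adjusted p 0.000289 to 0.0752). The setting that lost it, with the highest adjusted p, was the first series fitted alone. All the others took the spread from both series, so they are no separate check on it. The pooled SD of INHBA within knockdowns was 0.33 in the first series and 0.14 in the second. INHBA was the only 1 of 9 members called in this comparison, as were 0.874% of all genes. LUM, a fibroblast marker, also rose in that comparison, by 0.50 ± 0.083 (limma adjusted p = 0.00229), the single one of 6 fibroblast markers that passed. The mean level of these markers was 4.86 to 5.42 on first-series knockdown arrays and 5.09 in lacZ, and their part in the INHBA result was not tested.

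In the same model INHBA was lower with CLP1 hairpins than in the other knockdowns. It averaged 5.66 ± 0.45 (SD, n = 3) against 6.30, a difference of -0.65 ± 0.15 (limma adjusted p = 0.047). Its CLP1 mean was not below lacZ but 0.35 above it. The mean it was set against held the higher DDX17 (6.89) and HNRNPL levels (6.40). INHBA was again the only 1 of 9 members called, as were 0.722% of all genes, and CLP1 hairpin 3 (6.16) lay within the range of the HNRNPL arrays. The call lay close to the threshold and was kept in 9 of 21 alternatives (adjusted p 0.018 to 0.301). It was lost without CLP1 hairpin 1 (0.196) or 2 (0.277), DDX17 hairpin 2 (0.0829) or 3 (0.0711) and HNRNPL hairpin 1 (0.0632) or 2 (0.0622), and with hairpin number as a replicate block (0.0607).

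With DDX5 hairpins 0 of 9 members passed, against 0.038% of all genes, and with HNRNPL hairpins 0 of 9, against 0.0977%. INHBA averaged 5.62 ± 0.21 (SD, n = 3) with DDX5 hairpins against 6.32 in the other knockdowns, a difference of -0.69 ± 0.15 (95% interval -1.01 to -0.38, limma adjusted p = 0.137, unadjusted p = 0.000137). INHBE averaged 7.49 against 7.99, a difference of -0.49 ± 0.19 (-0.88 to -0.11, adjusted p = 0.53), and GDF15 averaged 7.48 against 7.84, a difference of -0.36 ± 0.17 (-0.71 to -0.01, adjusted p = 0.53). With HNRNPL hairpins INHBA averaged 6.40 against 6.06, a difference of 0.34 ± 0.15 (0.03 to 0.66, adjusted p = 0.54). For INHBE, DDX5 hairpin 1 (8.31) stood apart from the other DDX5 arrays (6.95 and 7.22), and without it 17.2% of all genes passed with DDX5 hairpins. INHBE was then lower than in the other knockdowns by 0.90 ± 0.15 (adjusted p = 0.00219, range over the alternatives 0.00219 to 0.999). INHBA was lower by 0.81 ± 0.17 (0.00865, range 0.00865 to 0.725). INHA was higher by 0.38 ± 0.12 (0.0403), so that 3 of 9 members passed. Leaving out the DDX5 array with the highest INHBE level lowers the DDX5 mean of INHBE by construction, so that call is no test of INHBE. The same array had the highest INHBA (5.85) and the lowest INHA level (5.17) of the DDX5 arrays. Leaving it out widens both differences by construction, so the INHBA and INHA calls are no test either. INHBA also passed with DDX5 without CLP1 hairpin 1 (0.045) or HNRNPL hairpin 3 (0.0483), where 0.0652% and 0.119% of all genes were called. Each of these arrays had the lowest INHBA level of its group. Leaving it out raises the mean DDX5 was set against by construction, so these calls are no test of INHBA.

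INHBE, in contrast to INHBA with DDX17 hairpins, passed in none of the 4 comparisons of the first series. It differed by 0.43 ± 0.19 with DDX17 hairpins (0.04 to 0.81, limma adjusted p = 0.352), by 0.37 ± 0.19 with HNRNPL hairpins (-0.02 to 0.75, adjusted p = 0.612) and by -0.30 ± 0.19 with CLP1 hairpins (-0.68 to 0.09, adjusted p = 0.394). Without DDX5 hairpin 1 the DDX17 value was 0.56 ± 0.13 and passed (adjusted p = 0.0203, range over the alternatives 0.0203 to 0.774), with 3.03% of all genes called. That array was singled out for its high INHBE level, and leaving it out lowers the mean DDX17 was set against, so this call is no test either. GDF15 differed from the other knockdowns by 0.35 ± 0.17 with HNRNPL hairpins (0.00 to 0.70, adjusted p = 0.586), by 0.03 ± 0.17 with DDX17 hairpins (-0.32 to 0.38) and by -0.03 ± 0.17 with CLP1 hairpins (-0.37 to 0.32).

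**Figure D3:**
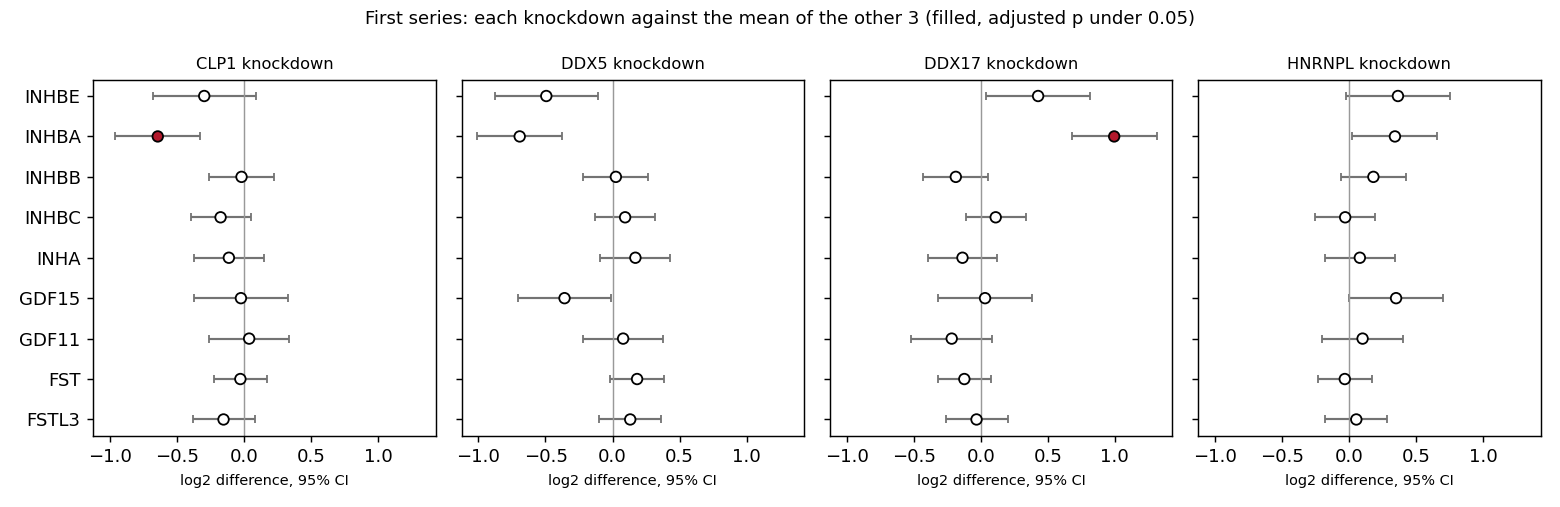
Difference in log2 level of each member between the 3 hairpins of a first-series gene and the mean of the other 3 genes, with the 95% interval of the limma model; filled points have an adjusted p under 0.05. INHBA is filled with DDX17 hairpins (0.995) and with CLP1 hairpins (-0.65), and no other member passes.

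Within the second series 0 of 9 members passed against the other knockdowns in any of the 4 comparisons. The shares of all genes called there were 0.0869% with PABPC1, 0.554% with PARP1, 0.0869% with PRKDC and 0.0109% with SUPT16H hairpins. GDF15 with PABPC1 hairpins averaged 5.37 ± 0.19 (SD, n = 3) against 5.73 in the other knockdowns, a difference of -0.36 ± 0.17 (-0.71 to -0.01, limma adjusted p = 0.462).

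The second-series knockdowns were next tested against lacZ, on arrays that the choice of INHBE and GDF15 had not used, apart from the shared lacZ array. Again 0 of 9 members passed with PABPC1, PARP1, PRKDC or SUPT16H hairpins, where 5.76%, 5.44%, 35.7% and 9.53% of all genes passed. INHBE averaged 5.17 ± 0.15 with PABPC1 hairpins (SD, n = 3) against 5.59 in lacZ (n = 2), a difference of -0.42 ± 0.26 (-0.95 to 0.11, limma adjusted p = 0.301). The difference was -0.40 ± 0.26 with PARP1 (-0.93 to 0.13, adjusted p = 0.409), -0.28 ± 0.26 with PRKDC (-0.80 to 0.25, adjusted p = 0.384) and -0.07 ± 0.26 with SUPT16H hairpins (-0.60 to 0.45, adjusted p = 0.855).

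GDF15 differed from lacZ by -0.12 ± 0.23 with PABPC1 (-0.60 to 0.36), 0.10 ± 0.23 with PARP1 (-0.38 to 0.58), 0.33 ± 0.23 with PRKDC (-0.15 to 0.81) and 0.30 ± 0.23 with SUPT16H hairpins (-0.18 to 0.78), with limma adjusted p-values of 0.767, 0.852, 0.254 and 0.380. GDF11, the lowest of the 9 with all but PARP1 hairpins, differed by -0.57 ± 0.20 with SUPT16H (-0.98 to -0.15, adjusted p = 0.0701), -0.53 ± 0.20 with PABPC1 (-0.94 to -0.12, adjusted p = 0.106), -0.46 ± 0.20 with PRKDC (-0.87 to -0.05, adjusted p = 0.0715) and -0.14 ± 0.20 with PARP1 hairpins (-0.55 to 0.27, adjusted p = 0.76). Without PRKDC hairpin 3 (7.05, against 6.40 and 6.71 for the others), GDF11 fell by 0.62 ± 0.21 with PRKDC hairpins and passed (adjusted p = 0.0312, range over the alternatives 0.0312 to 0.303), with 26.6% of all genes called. Leaving out the PRKDC array with the highest GDF11 level lowers the PRKDC mean by construction, so this call is no test of GDF11. With the second series fitted alone, INHBA (0.36 ± 0.13, adjusted p = 0.0326, range 0.0326 to 0.493) and INHA (0.35 ± 0.12, adjusted p = 0.0312, range 0.0312 to 0.465) passed with PRKDC hairpins, with 48.4% of all genes called.

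**Figure D4:**
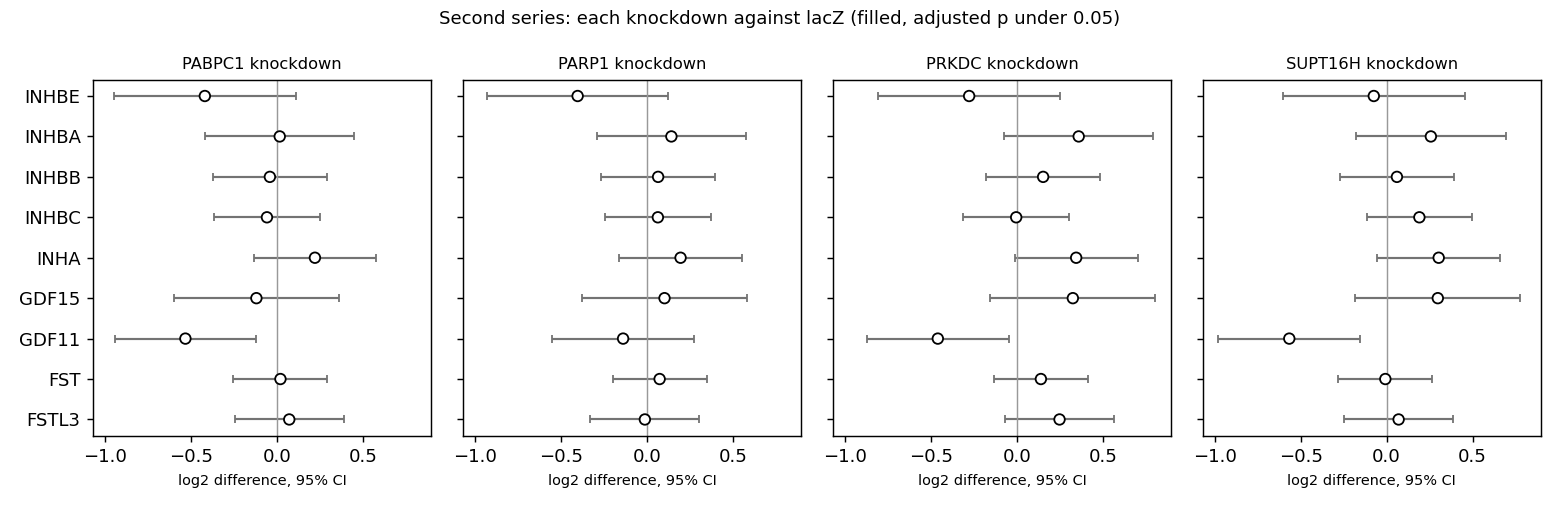
Difference in log2 level of each member between the 3 hairpins of a second-series gene and the 2 lacZ arrays, with the 95% interval of the limma model; filled points would have an adjusted p under 0.05. No point is filled, and GDF11 lies lowest in 3 of the 4 panels (-0.46 to -0.57).

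The rest of the pathway was read from lists of its receptors, SMAD proteins, other ligands, extracellular modulators and SMAD target genes. Of 14 receptors 0 passed in either direction against lacZ with CLP1, DDX5, DDX17 or HNRNPL hairpins, where 0.956%, 0.842%, 2.77% and 1.84% of all genes passed, and 0 of 8 SMAD genes passed. The median difference of the SMAD genes was -0.08, -0.32, -0.29 and -0.31, against 0.00, 0.02, 0.00 and -0.01 over all genes. Among 25 other ligands GDF9, an oocyte growth factor, fell by 0.96 ± 0.21 with DDX5 (limma adjusted p = 0.0267), 1.15 ± 0.21 with DDX17 (0.00284) and 1.02 ± 0.21 with HNRNPL hairpins (0.0118). BMP4, a ligand of the bone morphogenetic group, fell by 0.95 ± 0.21 with DDX17 (0.00973) and 0.94 ± 0.21 with HNRNPL hairpins (0.0157). The BMP4 calls were lost with the first series fitted alone (0.0772 and 0.108, range over the alternatives 0.00293 to 0.108). Of the 25, 0 passed with CLP1, 1 fell with DDX5, 3 with DDX17 and 4 with HNRNPL hairpins, and 0 rose, where 0.619%, 0.668%, 1.56% and 1.13% of all genes fell. Of 15 modulators and convertases 0 passed with any of the 4. All these first-series values rest on the single lacZ array.

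Pathway genes that passed in the second series were most numerous with PRKDC hairpins, where 35.7% of all genes passed (19.6% higher, 16.1% lower). SMAD4, the shared partner of the receptor-activated SMAD proteins, fell by 1.18 ± 0.23 (limma adjusted p = 0.00137), and BAMBI, a decoy receptor, fell by 1.08 ± 0.21 (0.00138). BMPR2, a type II receptor, fell by 1.81 ± 0.36 (0.00187) and SMAD2 by 0.99 ± 0.26 (0.00919), while the ligand GDF7 rose by 1.14 ± 0.25 (0.00345). The calls of BMPR2, SMAD2 and GDF7 were lost without lacZ replicate 2, with an adjusted p of 0.0608 (range over the alternatives 0.000105 to 0.0608), 0.11 (0.000112 to 0.11) and 0.0604 (9.2e-06 to 0.0604). Of 8 SMAD genes 4 fell and 0 rose with PRKDC hairpins, of 14 receptors 3 fell and 1 rose, of 25 other ligands 2 fell and 5 rose, and of 15 modulators and convertases 1 fell and 5 rose. The 8 SMAD genes had a median of -0.45 there, against 0.10 over all genes. With PABPC1, PARP1 and SUPT16H hairpins 1 of 8 SMAD genes fell in each and 0 rose. In each it was SMAD4 (-0.82, -0.79 and -0.72), with calls kept in 8, 8 and 6 of 13 alternatives. BAMBI also fell with PABPC1 (-0.74) and PARP1 hairpins (-0.85), and BMPR2 with SUPT16H hairpins (-1.39). GDF9, lower with first-series hairpins too, fell with PABPC1 (-0.57) and SUPT16H hairpins (-0.63), calls kept in 6 and 10 of 12 alternatives. Of 14 receptors 0, 0 and 1 fell and 0, 0 and 1 rose with the 3 knockdowns. Of 15 modulators and convertases 1, 1 and 0 fell and 0, 1 and 1 rose. Of the 25 other ligands 1 rose and 2 fell with PABPC1, 2 rose and 0 fell with PARP1, and 1 rose and 1 fell with SUPT16H hairpins. In these 3 comparisons 1.73%, 2.46% and 3.77% of all genes were called higher, and 4.02%, 2.98% and 5.76% lower. Against the other knockdowns of a series, 0 genes of these pathway lists passed in any of the 8 comparisons.

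Target genes of SMAD signalling were read from 14 measured members. With CLP1, DDX5, DDX17 and HNRNPL hairpins 2, 0, 3 and 1 of them fell against lacZ and 0 rose, where 0.619%, 0.668%, 1.56% and 1.13% of all genes were called lower. The list's medians were -0.37, -0.25, -0.33 and -0.27, against 0.00, 0.02, 0.00 and -0.01 over all genes. SNAI1, a repressor that drives loss of epithelial character, fell with CLP1 (-2.59 ± 0.58, limma adjusted p = 0.0259), DDX17 (-2.33 ± 0.58, 0.0257) and HNRNPL hairpins (-2.23 ± 0.58, 0.0453). All 3 calls were lost with quantile normalization over all arrays (0.0888, 0.0695 and 0.101), and the HNRNPL call also with no intensity trend (0.0614). They were lost too without CLP1 hairpin 2 (0.0628) or 3 (0.0734), without DDX17 hairpin 2 (0.0709) or 3 (0.0538), and without HNRNPL hairpin 1 (0.0945), 2 (0.0792) or 3 (0.0641). Over all alternatives the adjusted p ran over 0.000231 to 0.0888 with CLP1, 0.000452 to 0.0709 with DDX17 and 0.000834 to 0.101 with HNRNPL hairpins. With PABPC1, PARP1, PRKDC and SUPT16H hairpins 1, 3, 2 and 1 of the 14 fell, and 2 rose with PRKDC hairpins. The shares of all genes called lower were 4.02%, 2.98%, 16.1% and 5.76%, and 19.6% were called higher with PRKDC hairpins, so that the PRKDC counts lay near those over all genes. The single gene that fell with SUPT16H hairpins was SNAI1 (-1.50 ± 0.46, limma adjusted p = 0.0405), a call kept in 5 of 13 alternatives (0.04 to 0.23) and lost, among others, without SUPT16H hairpin 1 (0.0832) or 2 (0.123) or lacZ replicate 2 (0.23) or 3 (0.169).

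Of 10 measured regulators and markers of cellular stress, 2 rose with CLP1, 1 with DDX5, 3 with DDX17 and 3 with HNRNPL hairpins against lacZ, and 0 fell. The shares of all genes called higher were 0.337%, 0.174%, 1.22% and 0.7%, and the lists' medians were 0.42, 0.33, 0.42 and 0.35. The list was written with earlier results of these arrays known. ATF5, a transcription factor of the stress response, rose by 1.31 ± 0.28 with CLP1 (limma adjusted p = 0.0184), 1.47 ± 0.28 with DDX5 (0.00706), 1.48 ± 0.28 with DDX17 (0.00286) and 1.46 ± 0.28 with HNRNPL hairpins (0.00471), calls that were lost with the first series fitted alone (0.223, 0.152, 0.0727 and 0.0994, range over the alternatives of the 4 knockdowns 0.000408 to 0.223). The CLP1 call was also lost with quantile normalization over all arrays (0.126) and without CLP1 hairpin 2 (0.0628) or 3 (0.0709). CHAC1, which degrades glutathione and is a known ATF4 target, rose by 1.75 ± 0.33 with DDX17 (0.00266) and 1.29 ± 0.33 with HNRNPL hairpins (0.0373). These calls were kept in 11 and 6 of 11 alternatives. TRIB3 rose by 1.31 ± 0.28 with CLP1 hairpins (0.0196), kept in 9 of 11. CEBPB rose by 0.77 ± 0.20 with DDX17 (0.0319) and 0.86 ± 0.20 with HNRNPL hairpins (0.0234), kept in 6 and 8 of 11. In the second series 0 of these 10 genes rose in the 4 comparisons with lacZ, and 2, 3, 3 and 2 fell with PABPC1, PARP1, PRKDC and SUPT16H hairpins, where 4.02%, 2.98%, 16.1% and 5.76% of all genes were called lower. DDIT3, which encodes the stress factor CHOP, fell by 1.45 ± 0.25 with PABPC1 hairpins (0.00121). It was also called lower with PARP1 (-1.10), PRKDC (-0.84) and SUPT16H hairpins (-0.87). The 4 calls were kept in 13, 11, 10 and 9 of 13 alternatives. ATF4 was called lower with PABPC1 (-0.85), PARP1 (-0.74), PRKDC (-0.54) and SUPT16H hairpins (-0.64), kept in 11, 8, 8 and 8 of 13. All 4 comparisons use the same 2 lacZ arrays.

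Finally, the genes whose levels went most closely with INHBE and with GDF15 were listed by Pearson's r over the 14 first-series arrays. These arrays share their normalization, and lacZ lies at the low end for each gene, so r is also given over the 13 knockdown arrays alone. For INHBE they were DDIT4, an inhibitor of mTOR signalling (r = 0.95, 0.88 without lacZ), SERPINH1, a collagen chaperone (0.93, 0.78), SH3BGR (0.92, 0.77), NUPR1, a stress-induced chromatin protein (0.92, 0.76), and CHAC1 (0.91, 0.86). For GDF15 they were STC2, a secreted glycoprotein (0.94, 0.89), MORN4 (0.92, 0.87), SERPINH1 (0.90, 0.76), ATF5 (0.89, 0.76) and PXDC1 (0.88, 0.73). Over the 14 second-series arrays, where INHBE spanned only 4.96 to 5.77, r with INHBE was 0.71 for CHAC1 and 0.57 for DDIT4, but 0.13 for SERPINH1, -0.03 for SH3BGR and 0.20 for NUPR1. With GDF15 it was 0.67 for SERPINH1, 0.52 for PXDC1, 0.36 for STC2, 0.11 for MORN4 and 0.01 for ATF5. INHBE and GDF15 themselves had r = 0.81 in the first series, 0.54 without lacZ and 0.33 in the second. INHBE and INHBA had r = 0.66, 0.71 without lacZ, and 0.00 in the second series.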

How the data were processed

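RNA of HEK293 cells was measured on 28 Human Gene ST1.0 arrays. The deposited values are intensity values of probesets, obtained by the authors through RMA (background correction, quantile normalization and summarisation over probes), separately in each series. They lie on the linear scale (4.25 to 18486). No array column was unmapped. The software version and genome build are not given in the sources used here. Of 33252 probesets the 19460 that carry a single gene symbol were used, which leaves aside 1754 with several symbols and 12038 without one. The probeset with the highest mean was used for the 769 genes with more than 1, which gave 18417 genes. Tests were run on log2 intensities, without pseudocount or low-value filter. The number of arrays limits the precision.

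Limma 3.58.1 in R 4.3.3 fitted 1 linear model over 28 arrays, in which each knocked-down gene and the series had a term and the prior variance followed intensity (residual degrees of freedom 17, prior 8). The comparisons were each of 8 knockdowns against lacZ of its series and against the other 3 of its series. The CPSF6 array entered no comparison. The calling was tested on simulated data. The members and lists were chosen with earlier results of these data known. By rule, all 9 members were named on every array, and the 5 genes with the highest r with INHBE and with GDF15. Of list genes at most 4 called per list and comparison were named. Many were those whose calls all or nearly all alternatives kept, but others, such as SNAI1, ATF4 and CEBPB, were not. This choice was made after their values were seen. Alternatives changed the series term, the scaling, a pseudocount of 16, the variance trend, a filter on the lowest 25% of genes, the probeset rule, a replicate block and each array in turn. Plots used Python 3.11.15 with matplotlib 3.10.9.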

Additional observations from a re-analysis of the deposited data

Results flagged for a closer look

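The single CPSF6 array belongs to no comparison above, and 4 members lay above lacZ on it by more than the gap between the 2 lacZ arrays of the second series. INHBE read 7.53 on the CPSF6 array and 5.64 in lacZ, a difference of 1.89 (gap 0.25). GDF15 read 6.72 against 5.94, a difference of 0.78 (gap 0.18). INHBA read 5.53 against 5.31, a difference of 0.22 (gap 0.19), and FST read 5.73 against 5.50, a difference of 0.23 (gap 0.02). Below lacZ by more than that gap were 3 members, GDF11 by -0.61 (gap 0.21), FSTL3 by -0.39 (gap 0.15) and INHBB by -0.13 (gap 0.05). Of all genes 27.1% lay above lacZ and 29.9% below it by more than their gap. With 1 array there is no replicate check and no test.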

How the results depend on the processing

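The limits are 3 hairpins per gene, series normalized apart, and the single first-series lacZ array, which also stands in the second series and may have been run with either. Without that array no first-series value against lacZ can be formed. Hairpin numbers name different sequences and did not pair the arrays: the correlation of deviations from the group means was -0.575 to 0.833 for same-numbered arrays, with a mean of 0.022. With the number as a replicate block, INHBA differed by -0.65 with CLP1 hairpins against the other knockdowns (adjusted p = 0.0607) and 0 members passed, while the DDX17 call was kept (0.00232).

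First-series differences of INHBE and GDF15 from lacZ kept their sign under all alternatives run. Quantile normalization over all arrays gave 1.81 for INHBE and 1.60 for GDF15 with CLP1 and 2.38 for INHBE with DDX17 hairpins. Centring each array on its median gave 2.62 for INHBE with DDX17. Quantile normalization with no series term gave INHBE 1.59 with CLP1, 2.16 with DDX17 and 2.19 with HNRNPL. A pseudocount of 16 gave INHBE 1.71, 2.22 and 2.17 with CLP1, DDX17 and HNRNPL, and GDF15 1.56 and 1.82 with CLP1 and HNRNPL. Leaving out 1 array gave INHBE 1.94 to 2.08 with CLP1, 1.44 to 2.12 with DDX5, 2.52 to 2.56 with DDX17 and 2.43 to 2.61 with HNRNPL. Without lacZ, r with INHBE moved to 0.77 for SH3BGR and 0.76 for NUPR1.

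Against the other knockdowns, INHBA with CLP1 hairpins differed by -0.65 with the series fitted alone (adjusted p = 0.301), with no variance trend (0.0562) and with the lowest 25% of genes left out (0.0504), and by -0.59 with quantile normalization with or without the series term (0.0765 and 0.0762), and 0 members passed in each. Leaving out 1 array gave -0.89 to -0.45 and 0 to 1 members called. With the series fitted alone INHBA with DDX17 hairpins differed by 0.995 (0.0752) and 0 members passed. Leaving out 1 array gave 0.81 to 1.16 and 1 to 2 members called, and 0 to 3 with DDX5 hairpins. Against lacZ 2 members passed with PRKDC hairpins with the series fitted alone, and 0 to 1 when 1 array was left out.

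Small differences changed sign. GDF15 with PARP1 hairpins against lacZ was -0.011 with quantile normalization and no series term. Leaving out 1 array gave INHBE -0.20 to 0.053 with SUPT16H against lacZ (0.031 without SUPT16H hairpin 3), and against the other knockdowns gave GDF15 -0.11 to 0.065 with CLP1 and -0.18 to 0.21 with DDX17. INHBA with PABPC1 against lacZ was -0.074 and -0.075 with quantile normalization with and without the series term, and -0.078 to 0.11 when 1 array was left out. FST with PABPC1 was -0.065 and -0.077 in those normalizations and -0.033 to 0.080 when 1 array was left out. It was -0.0027 with PARP1 with no series term, -0.022 and -0.034 with PRKDC, and with SUPT16H 0.0092 with centring and -0.022 to 0.014 when 1 array was left out.

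Counts over all genes moved more. Against lacZ they were 176 with CLP1 (55 to 669 over the alternatives), 155 with DDX5 (47 to 626), 511 with DDX17 (153 to 1542), 338 with HNRNPL (97 to 898), 1060 with PABPC1 (111 to 3364), 1002 with PARP1 (195 to 2138), 6574 with PRKDC (498 to 8916) and 1756 with SUPT16H (178 to 4338). Against the other knockdowns they were 133 (4 to 1790), 7 (0 to 3159), 161 (19 to 558), 18 (3 to 232), 16 (3 to 309), 102 (4 to 1319), 16 (2 to 3248) and 2 (2 to 12) in the same order. For the second series against lacZ the lowest counts came without lacZ replicate 2, and for DDX5 against the other knockdowns the highest came without DDX5 hairpin 1. Median centring put the share of DDX17 calls against lacZ that were higher at 60.5%, in place of 43.8%. Of 76 calls of pathway and stress genes against lacZ 7 passed under all alternatives run.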
